A study of Mus musculus with 7 samples.

Results

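Collagens are the most abundant proteins of the fibroblast matrix, and the 44 mouse genes on these arrays that encode their chains are described here. They were chosen by name, as the probe sets whose single gene symbol consists of Col, a type number, the letter a and a chain number, with the probe set of highest mean signal kept where a gene had more than 1. That gave 44 of the 19937 genes with a symbol of their own, from 46 probe sets. All 44 genes passed the filter on low signal and were among the 16801 genes tested.

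The study measured total RNA of mouse embryonic fibroblasts (MEFs) on 7 single-colour Affymetrix whole-transcript arrays, and it set cells with and without tenascin-C side by side. Tenascin-C, encoded by Tnc, is a large matrix glycoprotein that modulates how cells attach to fibronectin and collagen. The knockout group (KO) held 2 clones of Tnc knock-out mouse cells. The knockdown group (KD) held 2 clones of wild-type-mouse cells that stably carried a short hairpin RNA (shRNA) against Tnc. The wild-type group (WT) held 3 clones. All cells of the 3 groups had immortalised spontaneously, were kept for 2 days in serum-containing medium and received no treatment. No cells with a control hairpin were analysed here, and strain, age and passage are not given in the labels. Each array is 1 clone. Whether clones within a group derive from different animals is not stated in the labels, though the 2 KO clones differed in sex-linked RNA, as given below. Every p-value measures the spread between these clones only.

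Values are log2 signals, on which a difference of 1 is a doubling of signal. Array medians lay between 5.38 and 5.49, and the correlation between any pair of arrays was 0.979 to 0.99. The signal of Tnc itself was 8.05 and 8.51 on the KO arrays and 7.34 and 6.52 on the KD arrays, against 10.89, 11.42 and 11.38 on the WT arrays. Tnc fell in both groups, at -2.95 ± 0.295 SE on the log2 scale in KO (adjusted p = 0.042) and -4.30 ± 0.295 SE in KD (adjusted p = 0.0339). Neither call held when any 1 of the 7 arrays was left out, with adjusted p from 0.0752 to 0.163 in KO and from 0.0948 to 0.297 in KD. Whether its probe set overlaps the targeted exons of the knock-out allele is not given. KO 2 and KD 2 stood apart in sex-linked RNA. Xist, expressed from an inactive X chromosome, read 8.80 on KO array 2 and 3.51 to 3.77 on the other arrays, and the Y-linked Uty read 3.14 on KO array 2 and 4.98 on KD array 2, against 6.75 to 8.02 on the other arrays. By these genes KO 1 had a male pattern (Xist 3.77, Uty 7.57) and KO 2 a female one, so the KO group was mixed in sex. KD 2 had low Xist (3.74) together with its lowered Uty. Counts of collagens are also given without KO 2 and KD 2.

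A collagen molecule is a triple helix of alpha chains, wound from the product of a single gene or of several. Fibrillar collagens assemble into the rope-like fibrils that carry tension, with the type I trimer of Col1a1 and Col1a2 as the bulk of them, and with types III and V as partners that set fibril number and width. Type IV chains form the sheet of basement membranes, type VI chains form beaded filaments around cells, the fibril-associated collagens (FACITs, with interrupted triple helices) decorate fibrils, and transmembrane collagens sit in the plasma membrane. By these classes the set held 11 fibrillar, 9 network-forming, 6 microfibrillar (type VI), 9 FACIT and 4 transmembrane chains, with 5 of other kinds.

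The main chains of types I, III, V and VI had higher mean signals in both Tnc-deficient groups than in WT, and the paired basement membrane chains Col4a1 and Col4a2 had higher mean signals in KO, but no collagen gene passed the test. At an adjusted p under 0.05 over all 16801 genes, 0 of the 44 were called in KO against WT (background 0.167% of all tested genes), 0 in KD against WT (0.0179%) and 0 in KO against KD (0.375%). At an unadjusted p under 0.05, limma placed 9 collagen genes higher and 1 lower in KO than in WT, that is 22.7% against 12.8% of all tested genes (7.33% of all genes higher, 5.5% lower). The 9 were Col1a1, Col1a2, Col3a1, Col5a1, Col5a2, Col4a1, Col4a2, Col4a5 and Col6a3, and the lower one was Col16a1. In KD, 7 were higher and 0 lower than in WT, which is 15.9% against 14.1% of all genes (7.12% higher, 6.99% lower), and these were Col1a1, Col5a1, Col5a2, Col4a3, Col6a5, Col13a1 and Col23a1. The smallest adjusted p of any collagen gene was 0.131 for KO against WT, 0.239 for KD against WT and 0.107 for KO against KD.

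The signs of the fitted differences leaned upward in both comparisons, which share their 3 WT arrays. In KO, 28 of 44 collagen genes lay above WT (63.6%; all genes 42.6%), with a median log2 difference of 0.04 against -0.03 over all tested genes. With each array centred on its median, 34 of the 44 lay above WT (77.3%; all genes 54.9%). Without WT 1, 23 of 44 did (52.3%; all genes 42.4%) and the median was 0.011. Without KO 2 and KD 2, 35 of 44 did (79.5%; all genes 46.9%). In KD, 36 of 44 lay above WT (81.8%; all genes 56.8%), with a median of 0.14 against 0.03 over all tested genes. The log2 difference exceeded 1 in size for 4 collagen genes in KO (2.29% of all genes), namely Col3a1, Col4a1, Col4a2 and Col5a2, and for 1 in KD (1.11% of all genes), Col3a1. In bulk RNA, fewer cells of a type and less RNA per cell cannot be told apart.

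**Figure D1:**
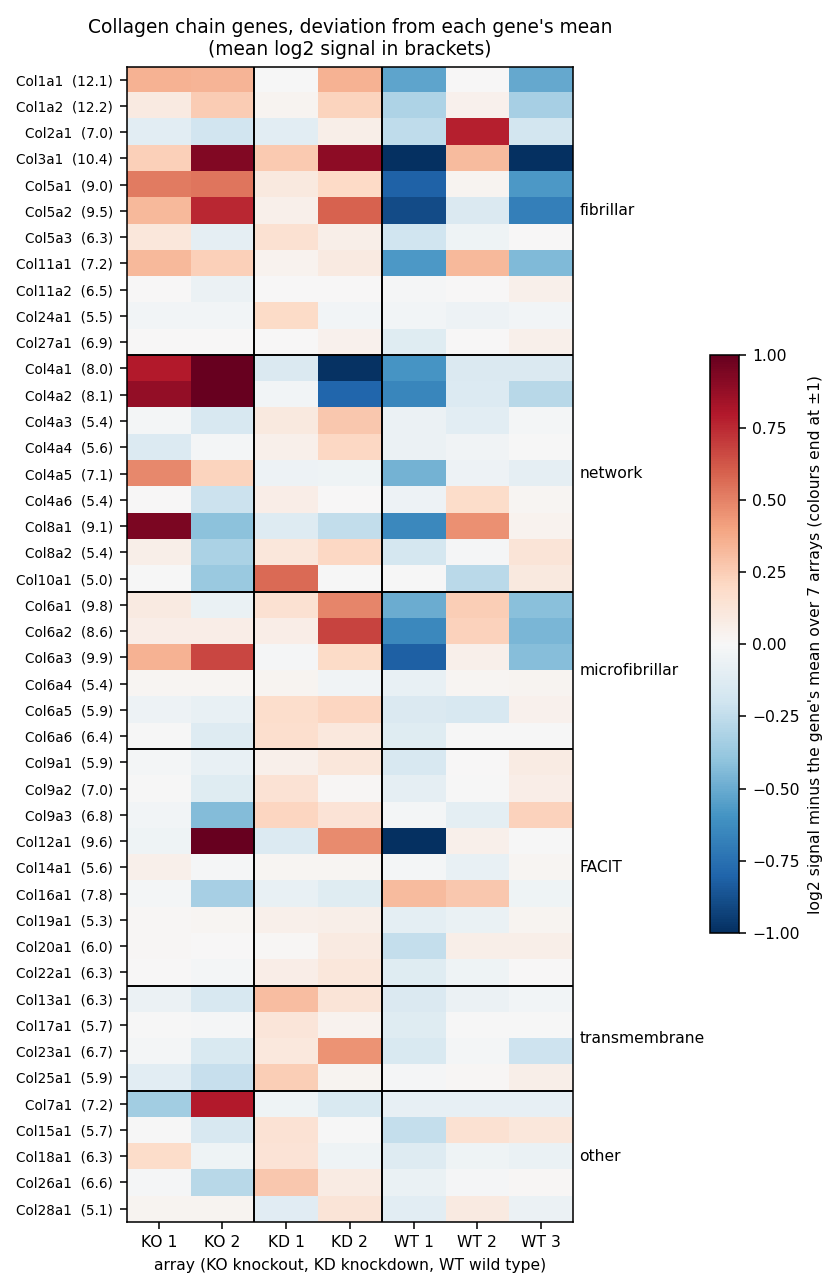
Deviation of each collagen gene from its own mean log2 signal over the 7 arrays, with genes grouped by class down the page and arrays across it (KO 1 and 2, KD 1 and 2, WT 1 to 3); red is above the gene's mean, blue below, and colours end at a deviation of 1. WT 1 is below the gene's mean for 43 of 44 genes, and deviations over 1 in size occur in Col3a1, Col4a1, Col4a2 and Col12a1.

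Among the fibrillar collagens, 9 of 11 lay above WT in KO and 9 of 11 in KD, with median log2 differences of 0.37 and 0.29. The 5 genes whose mean signal exceeded 7.47, the highest 75th percentile of any array, were Col1a1, Col1a2, Col3a1, Col5a1 and Col5a2, and all 5 lay above WT in both groups. Col1a1, the main chain of type I collagen, read 12.47 and 12.46 on the KO arrays and 12.12 and 12.47 on the KD arrays, against 11.60, 12.13 and 11.61 on the WT arrays. Both KO clones lay above every WT clone, while KD 1 lay just under WT 2. The difference was 0.69 ± 0.195 SE in KO (1.61-fold, adjusted p = 0.239) and 0.52 ± 0.195 SE in KD (1.43-fold, adjusted p = 0.324). Without KD 2, the value in KD was 0.34.

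Col1a2, the second chain of the type I trimer, read 12.31 and 12.47 on the KO arrays and 12.25 and 12.44 on the KD arrays, against 11.91, 12.26 and 11.88 on the WT arrays. As with its partner, both KO clones lay above every WT clone, while KD 1 lay just under WT 2. The log2 difference was 0.37 ± 0.143 SE in KO (adjusted p = 0.37) and 0.33 ± 0.143 SE in KD (adjusted p = 0.382). Its promoter is shown because this gene's promoter has long been studied for a CCAAT box bound by the factor CBF/NF-Y, and these letters occur in the 120 bases before the RefSeq start (GRCm38.p6, chr6:4505498-4505617, + strand; capitals mark CCAAT, whose first base is at -109).
Col1a2: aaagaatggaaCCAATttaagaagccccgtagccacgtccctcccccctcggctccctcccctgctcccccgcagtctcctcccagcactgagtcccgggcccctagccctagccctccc

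Col3a1, the homotrimeric chain that accompanies type I in soft tissue, had the widest range over the 7 arrays of the 11 fibrillar genes. Its signal was 10.63 and 11.32 on the KO arrays and 10.65 and 11.29 on the KD arrays, against 9.06, 10.71 and 9.08 on the WT arrays. The WT group itself was divided, with WT 2 inside the range of the deficient clones and the other WT clones well below them. The fitted difference was 1.36 ± 0.555 SE in KO (2.56-fold, adjusted p = 0.389) and 1.35 ± 0.555 SE in KD (2.55-fold, adjusted p = 0.354). It moved with the choice of WT clone, to 1.90 in both groups without WT 2 and to 1.08 in KO and 1.07 in KD without WT 1. Of the 10 promoters at hand of collagen genes with a mean above 7.47, that of Col3a1 was the 1 with the letters TATAAA. Within 250 bases, 13% of all promoters held them, and whether they act in transcription was not tested. In Col3a1 they lie at -117 (RefSeq, GRCm38.p6, chr1:45311418-45311537, + strand, capitals mark TATAAA).
Col3a1: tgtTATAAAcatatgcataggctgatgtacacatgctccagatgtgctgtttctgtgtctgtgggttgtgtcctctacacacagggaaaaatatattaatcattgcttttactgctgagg

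Col5a1 and Col5a2, type V chains that co-assemble with type I and start its fibrils, were the fibrillar genes with all 4 deficient clones above all 3 WT clones. Col5a1 read 9.49 and 9.50 on the KO arrays and 9.07 and 9.17 on the KD arrays, against 8.16, 8.99 and 8.40 on the WT arrays. Every KO clone lay above every KD clone, and every KD clone above every WT clone. Its difference was 0.98 ± 0.235 SE in KO (1.97-fold, adjusted p = 0.186) and 0.60 ± 0.235 SE in KD (1.52-fold, adjusted p = 0.338). Col5a2 read 9.86 and 10.30 on the KO arrays and 9.59 and 10.13 on the KD arrays, against 8.64, 9.40 and 8.85 on the WT arrays. Its KO and KD clones overlapped each other and lay above all WT clones, at 1.11 ± 0.28 SE in KO (2.16-fold, adjusted p = 0.202) and 0.90 ± 0.28 SE in KD (1.86-fold, adjusted p = 0.256). Col5a2 and Col3a1 are neighbours on chromosome 1, with 0 protein-coding genes between them in RefSeq. The Col5a1 promoter is given beside the others as a GC-rich one without TATAAA (RefSeq, GRCm38.p6, chr2:27886261-27886380, + strand, capitals mark GGGCGG, the core of a GC box, first base at -29).
Col5a1: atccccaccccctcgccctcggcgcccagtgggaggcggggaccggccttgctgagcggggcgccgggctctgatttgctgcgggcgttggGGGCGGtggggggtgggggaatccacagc

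The other 6 fibrillar genes had lower signals, between 5.46 and 7.79. Col11a1, a chain of cartilage fibrils that can stand in for type V chains, was 0.51 higher in KO and 0.29 higher in KD, with WT 1 at 6.66, WT 3 at 6.79 and WT 2 at 7.56. Col2a1, the main cartilage collagen, read 7.79 on WT 2 and 6.75 to 7.06 on every other array. Col5a3, Col11a2, Col24a1 and Col27a1 differed from WT by between -0.04 and 0.18 in either group. Col27a1 lies on the same chromosome as Tnc, with 11 protein-coding genes between them, and its values of 6.78 to 6.94 spanned all 3 groups.

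**Figure D2:**
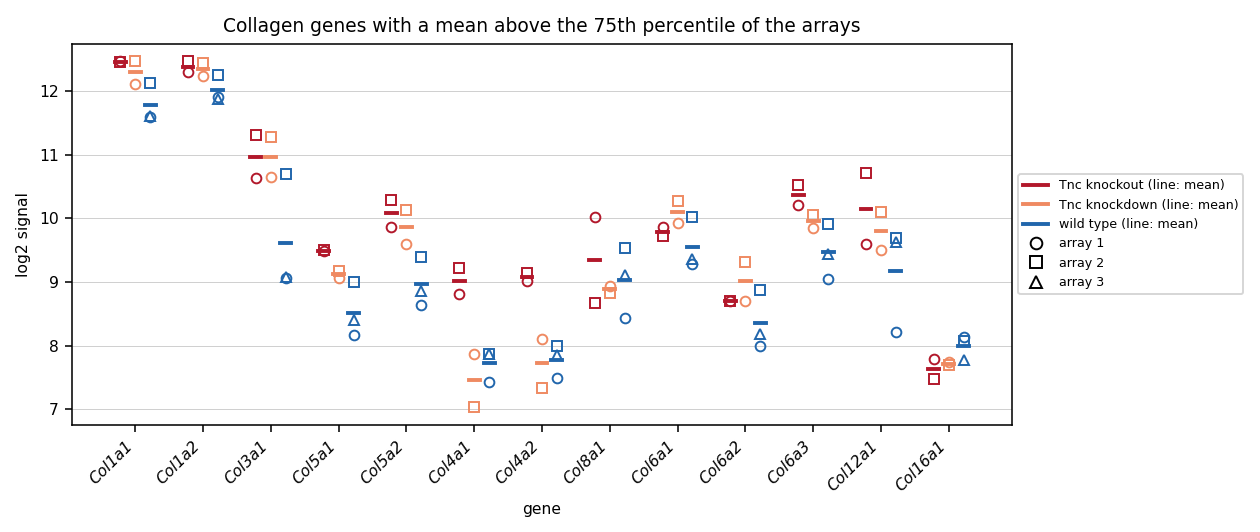
Log2 signal of the 13 collagen genes with a mean above 7.47, the highest 75th percentile of the arrays; each open symbol is 1 array (circle, square and triangle for arrays 1, 2 and 3), in the order KO, KD, WT within a gene, and each line is a group mean. WT 2, the blue square, sits above both other WT arrays for 11 of the 13 genes.

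The 6 type VI chains, the beaded filaments next to the cell, gave 5 genes above WT in KO (median 0.13) and 6 above WT in KD (median 0.38). Col6a1 read 9.87 and 9.72 on the KO arrays and 9.93 and 10.27 on the KD arrays, against 9.29, 10.03 and 9.36 on the WT arrays. WT 2 lay above both KO clones and KD 1. The difference was 0.24 ± 0.244 SE in KO (adjusted p = 0.703) and 0.54 ± 0.244 SE in KD (adjusted p = 0.395), and 0.10 in KO without WT 1 and 0.47 without WT 2.

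Col6a2, which joins Col6a1 in the same monomer and is its next coding gene on chromosome 10, read 8.71 and 8.71 on the KO arrays and 8.71 and 9.32 on the KD arrays, against 7.996, 8.87 and 8.19 on the WT arrays. Again WT 2 fell among the deficient clones. The log2 difference was 0.36 ± 0.296 SE in KO (adjusted p = 0.63) and 0.66 ± 0.296 SE in KD (adjusted p = 0.393), with 0.36 left in KD without KD 2 and 0.18 in KO without WT 1. Col6a3, the long chain that completes the monomer, had its highest group mean in KO rather than in KD. Its signal was 10.21 and 10.53 on the KO arrays and 9.85 and 10.06 on the KD arrays, against 9.05, 9.91 and 9.44 on the WT arrays. Both KO clones lay above all others, and KD 1 lay under WT 2. It was 0.91 ± 0.255 SE higher in KO (1.87-fold, adjusted p = 0.237) and 0.49 ± 0.255 SE higher in KD (1.40-fold, adjusted p = 0.458). The Col6a3 promoter, shown as a purine-rich contrast, held no CCAAT on either strand, and GGGCGG was likewise not in these bases, nor was TATAAA (RefSeq, GRCm38.p6, chr1:90844002-90844121, - strand, all in lower case).
Col6a3: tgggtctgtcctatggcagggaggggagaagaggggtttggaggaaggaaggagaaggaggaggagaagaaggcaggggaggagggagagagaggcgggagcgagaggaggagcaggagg

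The remaining type VI chains Col6a4, Col6a5 and Col6a6 had signals of 5.33 to 6.60, and Col6a4 and Col6a6 differed from WT by between -0.02 and 0.18 in either group. Col6a5 read 5.85 and 5.82 on the KO arrays and 6.07 and 6.11 on the KD arrays, against 5.75, 5.74 and 5.94 on the WT arrays, so that both KD clones lay above all others. It was 0.28 ± 0.0878 SE above WT in KD (adjusted p = 0.259) and 0.02 in KO. A second probe set of Col6a5, at 3.72 to 4.22, and one of Col6a6, at 4.24 to 4.50, were dimmer and were not used.

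Of the 9 network-forming chains, 4 lay above WT in KO (median -0.03) and 5 in KD (median 0.16), and the main basement membrane chains separated the KO clones from all others. Col4a1 and Col4a2, which form the widespread type IV trimer, are transcribed in opposite directions from a shared promoter. In the promoter entries used here their starts are 21 bases apart. The RefSeq gene bound of Col4a1 lies further upstream of that gene, at 11312889, outside the stretch shown. Both entry starts lie in the stretch below (GRCm38.p6, chr8:11312801-11312830, + strand, where the first capital is the entry start of Col4a2, the second that of Col4a1, which is read from the other strand).
Col4a1/Col4a2: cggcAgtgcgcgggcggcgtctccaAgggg

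Col4a1 read 8.81 and 9.23 on the KO arrays and 7.87 and 7.03 on the KD arrays, against 7.42, 7.87 and 7.87 on the WT arrays. Col4a2 read 9.01 and 9.14 on the KO arrays and 8.11 and 7.34 on the KD arrays, against 7.49, 8.0006 and 7.85 on the WT arrays. For both genes the KO clones lay above all 5 other clones, and KD 2 lay below every other clone. In KO the differences from WT were 1.29 ± 0.29 SE for Col4a1 (2.45-fold, adjusted p = 0.163) and 1.30 ± 0.255 SE for Col4a2 (2.46-fold, adjusted p = 0.131). In KD they were -0.27 ± 0.29 SE (adjusted p = 0.72) and -0.06 ± 0.255 SE (adjusted p = 0.948). The sign in KD rested on 1 clone, since both genes lay above WT without KD 2, by 0.15 and 0.33, and below it without KD 1, by -0.69 and -0.44. The direct comparison of KO with KD gave 1.57 ± 0.317 SE for Col4a1 (adjusted p = 0.107) and 1.35 ± 0.279 SE for Col4a2 (adjusted p = 0.111).

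The other type IV chains are made in specialised basement membranes. Col4a5 read 7.61 and 7.35 on the KO arrays and 7.08 and 7.09 on the KD arrays, against 6.66, 7.07 and 7.04 on the WT arrays. All deficient clones lay above all WT clones, the KD clones by a narrow margin over WT 2. Its difference was 0.55 ± 0.153 SE in KO (1.47-fold, adjusted p = 0.229) and 0.16 ± 0.153 SE in KD (adjusted p = 0.683), and without WT 1 the value in KD was 0.03. Col4a3, Col4a4 and Col4a6 had low signals, from 5.22 to 5.85, and KO differences of -0.03, -0.05 and -0.16. Both KD clones read above all other clones for Col4a3 and Col4a4, at 0.24 and 0.16 above WT.

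**Figure D3:**
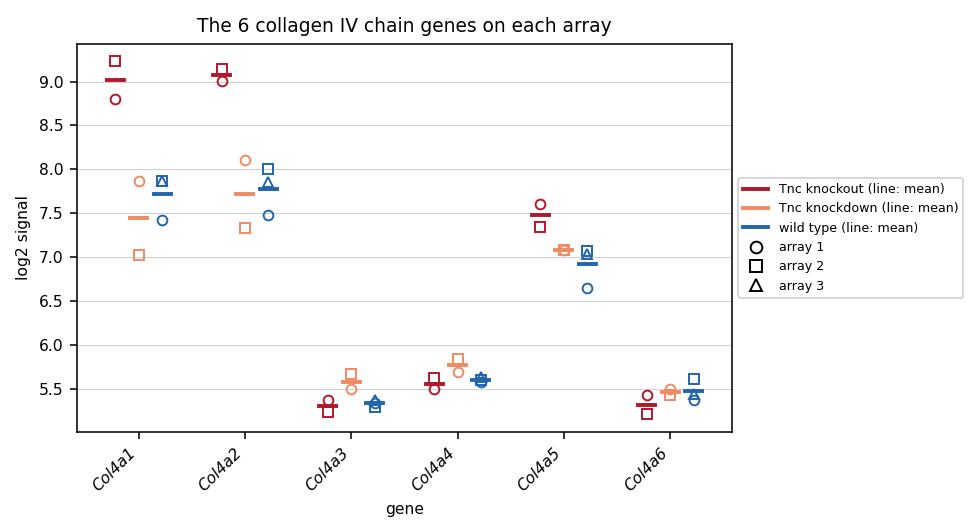
Log2 signal of the 6 type IV collagen genes; each open symbol is 1 array, each line a group mean, in the order KO, KD, WT within a gene. The KO arrays of Col4a1 and Col4a2 lie between 8.81 and 9.23, above all KD and WT arrays, which lie between 7.03 and 8.11.

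Outside type IV, the network-forming chains were Col8a1, Col8a2 and Col10a1. Col8a1, a short-chain collagen of vessel walls and injured tissue, read 10.02 and 8.66 on the KO arrays and 8.94 and 8.83 on the KD arrays, against 8.43, 9.53 and 9.11 on the WT arrays. Its KO clones were 1 above and 1 inside the WT range, and its differences of 0.32 and -0.14 were smaller than their SE of 0.463. Col10a1, the collagen of hypertrophic cartilage, had signals of 4.68 to 5.61 and differed by -0.13 in KO and 0.34 in KD. Col8a2, the partner chain of Col8a1, had signals of 5.04 to 5.56 and differed by -0.11 and 0.18.

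Of the 9 FACITs, 5 lay above WT in KO (median 0.05) and 8 in KD (median 0.10). Col12a1, which coats type I fibrils, read 9.59 and 10.71 on the KO arrays and 9.50 and 10.10 on the KD arrays, against 8.22, 9.69 and 9.63 on the WT arrays. WT 1 stood below all other clones, while WT 2 and WT 3 lay between the lower and the higher deficient clones. The log2 difference was 0.97 ± 0.553 SE in KO (adjusted p = 0.514) and 0.62 ± 0.553 SE in KD (adjusted p = 0.658). Col16a1, a FACIT found with fibrillin-containing fibrils, read 7.79 and 7.48 on the KO arrays and 7.73 and 7.69 on the KD arrays, against 8.13, 8.08 and 7.77 on the WT arrays. It was the 1 chain of the 13 with a mean above 7.47 that lay below WT in KO. Its KO clones overlapped WT by a narrow margin at WT 3, and its KD clones lay below all WT clones. The difference was -0.36 ± 0.145 SE in KO (adjusted p = 0.388) and -0.28 ± 0.145 SE in KD (adjusted p = 0.456), and without KO 2 it was -0.20 in KO.

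The other 7 FACITs had signals of 5.21 to 7.10. Col9a3, a chain of the type IX collagen that coats cartilage fibrils, read 6.76 and 6.35 on the KO arrays and 7.001 and 6.92 on the KD arrays, against 6.77, 6.69 and 7.01 on the WT arrays. KO 2 was the low clone. The difference from WT was -0.27 ± 0.154 SE in KO (adjusted p = 0.516), which was -0.06 without KO 2, and 0.14 ± 0.154 SE in KD (adjusted p = 0.732). Col9a1, Col9a2, Col14a1, Col19a1, Col20a1 and Col22a1 differed from WT by between -0.06 and 0.14 in either group.

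All 4 transmembrane chains had low signals, 5.60 to 7.13, and all 4 lay above WT in KD by 0.12 to 0.40. Col13a1, found at cell adhesions and the neuromuscular junction, read 6.26 and 6.17 on the KO arrays and 6.63 and 6.46 on the KD arrays, against 6.18, 6.27 and 6.30 on the WT arrays. The KD clones lay above all others and the KO clones mixed with WT, at 0.30 ± 0.0884 SE in KD (adjusted p = 0.239) and -0.03 in KO. Col23a1 read 6.67 and 6.53 on the KO arrays and 6.79 and 7.13 on the KD arrays, against 6.54, 6.67 and 6.48 on the WT arrays. Here too both KD clones were the highest, by 0.40 ± 0.124 SE over WT (1.32-fold, adjusted p = 0.254), and by 0.23 without KD 2. Col25a1, first known from amyloid plaques, read 5.83 and 5.70 on the KO arrays and 6.18 and 5.96 on the KD arrays, against 5.92, 5.94 and 5.99 on the WT arrays. It was the 1 collagen gene with both KO clones below all WT clones, at -0.19 ± 0.093 SE (adjusted p = 0.47). Col17a1, an epithelial hemidesmosome chain, differed by 0.03 in KO and 0.12 in KD.

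Of the 5 chains of other kinds, Col7a1, the anchoring fibril collagen of skin, read 6.81 and 7.96 on the KO arrays and 7.12 and 7.01 on the KD arrays, against 7.08 on each WT array. The KO clones thus lay on either side of the others. Col26a1 read 6.57 and 6.31 on the KO arrays and 6.85 and 6.67 on the KD arrays, against 6.52, 6.57 and 6.60 on the WT arrays, with the KD clones highest at 0.20 ± 0.107 SE over WT (adjusted p = 0.473) and KO at -0.12. Col15a1 and Col18a1, the basement membrane collagens that release anti-angiogenic fragments, and Col28a1 differed from WT by between -0.09 and 0.15.

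**Figure D4:**
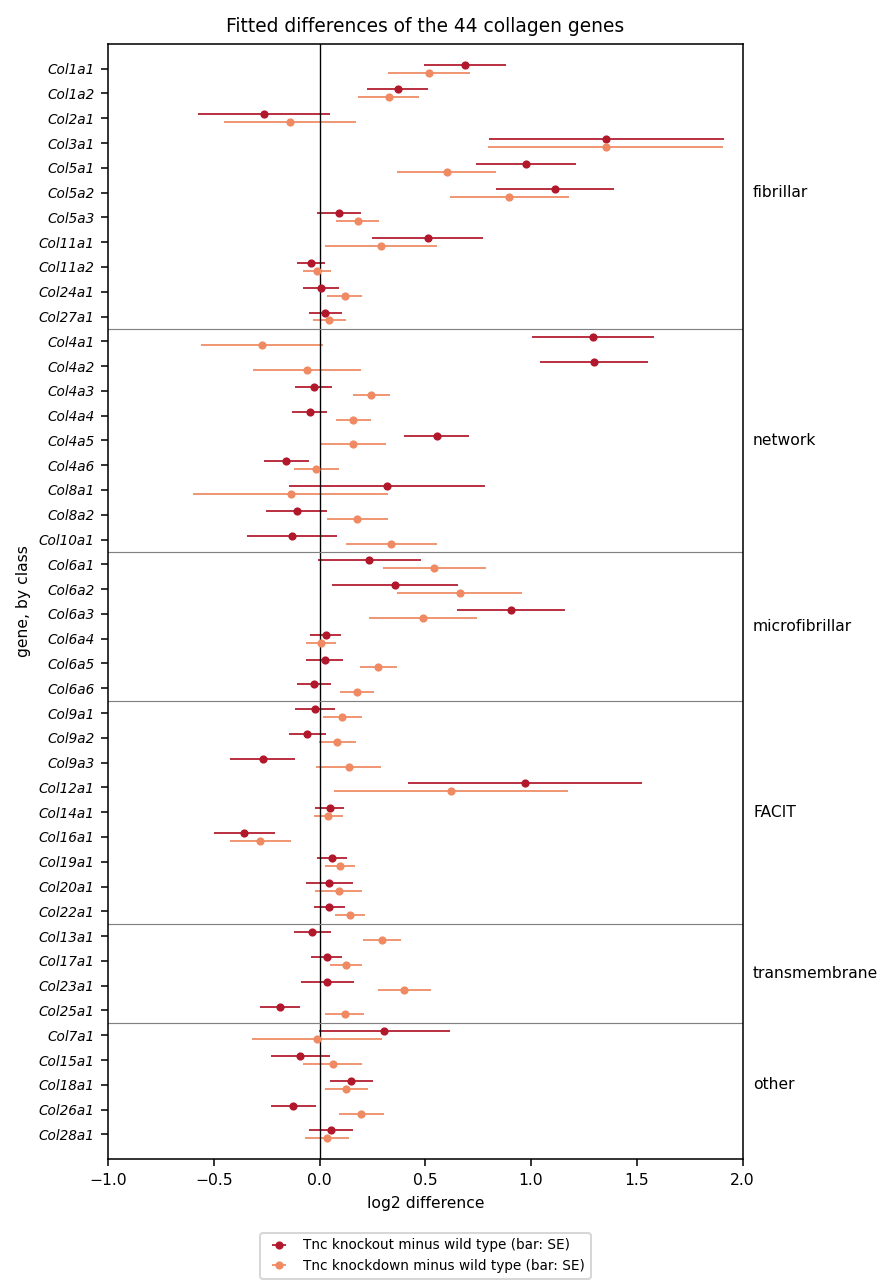
Fitted log2 difference of each of the 44 collagen genes, KO minus WT (dark red) and KD minus WT (orange), with bars of 1 SE and genes grouped by class. Col4a1 and Col4a2 lie near 1.3 for KO and at or below 0 for KD, while Col3a1 lies near 1.36 for both with an SE of 0.555.

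The collagen genes were also described by signal strength. Of the 13 genes with a mean above 7.47, 12 lay above WT in KO, with a median of 0.91, against 52% and a median of 0.01 over the 5915 tested genes as bright. In KD, 9 of the 13 lay above WT, with a median of 0.52, against 44.4% and -0.04 over those bright genes. Of the 31 dimmer collagens, 16 lay above WT in KO (median 0.0076; all dim genes 37.5% and -0.04). In KD, 27 of the 31 did (median 0.12; all dim genes 63.5% and 0.05). With quantile normalization these counts against WT were the same, except for dim collagens in KO. There 18 lay above WT (all dim genes 49%). The other shares of all genes were then 46.4% (bright, KO), 50.7% (bright, KD) and 58.3% (dim, KD). With each array centred the dim counts were 22 in KO (all dim genes 52.1%) and 26 in KD (55.1%). Of the 44 genes, 20 had the same value on 2 or more arrays (50.5% of all tested genes did). They were 18 of the 31 dim collagens (all dim genes 63.1%) and 2 of the 13 bright ones, Col4a1 and Col6a2 (all bright genes 27.4%). Col4a1 read 7.87296 on KD 1, WT 2 and WT 3. Col6a2 read 8.70775 on both KO arrays and KD 1, so its KO arrays added no spread to its SE. No detection calls were used, so which low signals lie above background is not known.

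Groups did not overlap for 9 collagen genes between KO and WT, 8 higher and 1 lower, Col25a1 (background 28.5% of all genes, 13.2% higher and 15.3% lower). In KO, 7 of the 13 bright collagens (all bright genes 21.4%) and 1 of the 31 dim ones (8.74%) lay wholly above WT, and with each array centred 7 (28.3%) and 10 (21.8%) did. Between KD and WT they did not overlap for 16, 15 higher and 1 lower, Col16a1 (30.5%, with 17.5% higher and 12.9% lower). In KD, 2 of the 13 bright collagens (all bright genes 16.8%) and 13 of the 31 dim ones (17.9%) lay wholly above WT. With each array centred 2 (13.6%) and 11 (14.7%) did, and with quantile normalization 5 (22.1%) and 12 (17.2%). The genes with all 4 deficient clones above all 3 WT clones were Col5a1, Col5a2 and Col4a5, which is 6.82% of the collagens against 4.15% of all tested genes. Those with both KO clones above all 5 others were Col5a1, Col4a1, Col4a2, Col4a5 and Col6a3 (11.4% against 8.21%). Both KD clones lay above all 5 others for 11 genes (25% against 11.7%), every one of them in the dim set and with a KD difference of at most 0.40.

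The WT clones were not alike in their collagen signals. WT 1 lay below the gene's mean over the 7 arrays for 43 of 44 collagens, against 54.8% of all tested genes, with Col16a1 as the exception. It was alone the lowest of the 7 arrays for 9 of the 13 bright collagens (14.7% of all bright genes). WT 2 lay above both other WT clones for 11 of the 13 (29.3% of all bright genes). The median deviation of the 13 bright genes from their own means was 0.32 and 0.53 on the KO arrays and -0.01 and 0.23 on the KD arrays, against -0.65, 0.05 and -0.42 on the WT arrays. WT 2 therefore lay above KD 1 and below the other deficient clones. Over all bright genes the same medians stayed between -0.02 and 0.03 on every array. All 4 deficient clones lay above both WT 1 and WT 3 for 8 of the 13, namely Col1a1, Col1a2, Col3a1, Col5a1, Col5a2, Col6a1, Col6a2 and Col6a3 (11.9% of all bright genes).

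Single clones moved the counts. The 9 collagens higher in KO at an unadjusted p under 0.05 became 4 without KO 2 (7.67% of all genes, against 7.33% with every array), 7 without WT 1 (5.46%) and 12 without WT 2 (6.62%). The 7 in KD became 2 without WT 1 (4.47% of all genes, against 7.12% with every array), 3 without KD 2 (6.18%), 3 without WT 3 (6.63%) and 11 without WT 2 (5.64%). Without both deficient arrays numbered 2, the counts were 3 in KO (8.18%) and 6 in KD (8.72%).

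**Figure D5:**
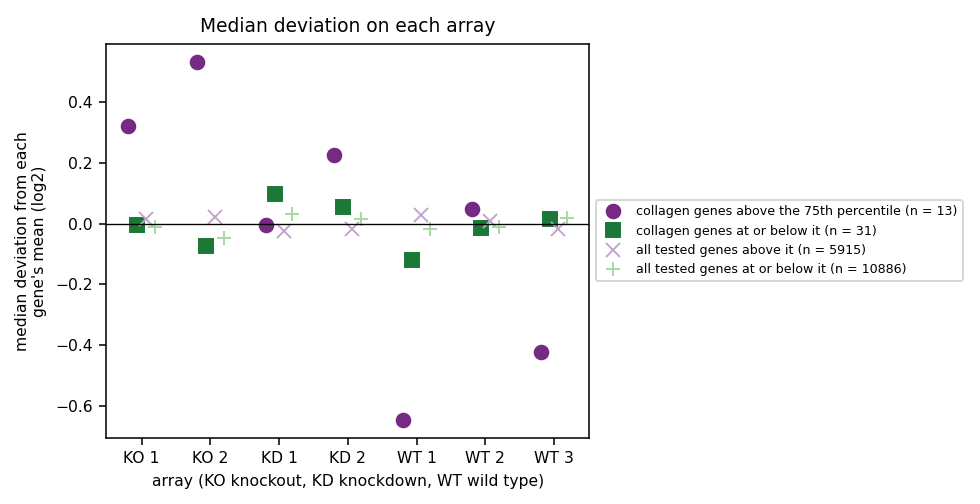
Median deviation from each gene's own mean log2 signal on each array, for the 13 collagen genes above the 75th percentile (purple circles), the 31 at or below it (green squares) and all tested genes of the same 2 levels (crosses and plus signs). The purple circles lie between 0.53 on KO 2 and -0.65 on WT 1, while the crosses and plus signs stay close to 0.

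Between the deficient groups themselves, 17 of 44 collagens lay higher in KO than in KD (38.6%; all genes 40.3%), with a median of -0.08 against -0.05 over all genes. With each array centred on its median, 22 of the 44 did (50%; all genes 54.6%), and the median was -0.0067. Without KO 2 and KD 2 the median was -0.03, against -0.02 over all genes. At an unadjusted p under 0.05, 2 were higher in KO, Col4a1 and Col4a2 (9.05% of all genes), and 6 were lower (8.87%), namely Col4a3, Col6a5, Col13a1, Col23a1, Col25a1 and Col26a1. Only Col4a1 and Col4a2 exceeded 1 in size (2.4% of all genes). Without KO 2 and KD 2, they gave 0.93 and 0.90, and 0 collagens were higher in KO at an unadjusted p under 0.05 (8.54% of all genes). The arrays of the groups did not overlap for 23 collagens, 6 higher and 17 lower in KO (background 45% of all genes, 17.8% higher and 27.2% lower). Of the 17 lower ones, 16 belonged to the dim set (51.6% of it; all dim genes 32.2%), and with each array centred that number was 8 (25.8%; all dim genes 18.9%). Col13a1 gave -0.33 ± 0.0968 SE (adjusted p = 0.179), Col9a3 -0.41 ± 0.168 SE (adjusted p = 0.284) and Col23a1 -0.36 ± 0.136 SE (adjusted p = 0.252). Col25a1 and Col26a1 lay at -0.30 ± 0.102 SE (adjusted p = 0.215) and -0.32 ± 0.117 SE (adjusted p = 0.241). Col3a1 gave 0.0042 ± 0.608 SE. Col1a1 was 0.17 ± 0.214 SE higher in KO.

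Collagen needs a chain of helpers from the endoplasmic reticulum to the cell surface. Of the 82 helper genes tested from 7 lists, 0 passed the test in either comparison with WT (background 0.167% in KO and 0.0179% in KD). The list counts that follow stand beside 42.6% of all tested genes above WT in KO and 56.8% in KD, with medians of -0.03 and 0.03. Among the enzymes and chaperones that hydroxylate, glycosylate and fold the chains, 12 of 16 lay above WT in KO (median 0.21) and 9 of 16 in KD (median 0.07). Plod2, the lysyl hydroxylase of the collagen telopeptides, read 8.82 and 9.47 on the KO arrays and 6.88 and 7.05 on the KD arrays, against 8.18 on each WT array. The KO clones lay above and the KD clones below WT, at 0.97 (adjusted p = 0.131) and -1.21 (adjusted p = 0.123). Plod1, which hydroxylates helical lysines, was 0.86 higher in KO (adjusted p = 0.206). Ppib, the prolyl isomerase cyclophilin B, was -0.29 from WT in KD (adjusted p = 0.256).

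For secretion, 6 of 7 tested genes lay above WT in KO (median 0.29) and 5 of 7 in KD (median 0.05). Tmem38b, an endoplasmic reticulum cation channel needed for collagen assembly, differed by 0.54 in KO (adjusted p = 0.467) and -0.64 in KD (adjusted p = 0.358). Sec23a, a coat protein of the vesicles that carry procollagen, was 0.29 above WT in KO, and Creb3l1, a transcription factor of the secretory pathway, was 1.18 above WT in KD (adjusted p = 0.579). Among the propeptidases, their enhancers and the lysyl oxidases, 8 of 11 lay above WT in KO (median 0.34) and 9 of 11 in KD (median 0.23). Pcolce2, an enhancer of procollagen C-proteinase, read 10.16 and 10.35 on the KO arrays and 8.31 and 8.50 on the KD arrays, against 8.22, 9.16 and 8.22 on the WT arrays. Both KO clones lay above all others, as for Col4a1 and Col4a2, at 1.72 ± 0.298 SE over WT (adjusted p = 0.11). Its relative Pcolce was 0.34 above WT in KO (adjusted p = 0.374) and 0.37 in KD (adjusted p = 0.304), and Tll1, a C-proteinase of the same family as Bmp1, gave -1.93 in KD (adjusted p = 0.195).

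Among genes of proteins that bind collagen, 9 of 13 lay above WT in KO (median 0.54, all tested genes 42.6%) and 9 of 13 in KD (median 0.47, all tested genes 56.8%). Sparc, a chaperone-like collagen-binding glycoprotein, was 0.61 above WT in KO (adjusted p = 0.289) and 0.66 in KD (adjusted p = 0.233), and Fn1, fibronectin, on which collagen fibrils are laid down, was 0.54 above WT in KO (adjusted p = 0.27). Ogn, a small leucine-rich proteoglycan, lay 2.44 above WT in KD (adjusted p = 0.402), with WT 1 at 4.53 and WT 2 at 7.99. Of 10 receptors, 6 lay above WT in KO and 5 in KD. Ddr2, a receptor tyrosine kinase for fibrillar collagen, was 0.31 above WT in KO (adjusted p = 0.344) and 0.30 in KD (adjusted p = 0.323). Adgrg6, an adhesion receptor that binds type IV collagen, gave -0.69 in KO (adjusted p = 0.329), and the integrin chain Itga11 gave 1.57 in KD (adjusted p = 0.38).

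Proteases and inhibitors of collagen breakdown were mixed, with 5 of 9 above WT in each group. Mmp14, a membrane-bound collagenase, was 0.58 above WT in KO (adjusted p = 0.308) and 0.34 in KD (adjusted p = 0.492). Timp1, an inhibitor of such proteases, gave -0.46 in KO (adjusted p = 0.456), and Fap, a fibroblast surface protease, 1.01 in KD (adjusted p = 0.5). Of 16 transcription factors known to act on collagen genes, 10 lay above WT in KO (median 0.14) and 7 in KD (median -0.03). Sox9, the cartilage factor that drives Col2a1, gave -0.38 in KO (adjusted p = 0.178), and Egr1, an early-response factor, gave -0.69 (adjusted p = 0.183). In KD, Yap1 gave -0.28 (adjusted p = 0.266) and Ets1 gave -0.28 (adjusted p = 0.405).

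Marker genes were read for the fibroblast label, and 10 of 10 measured fibroblast markers lay at or above the 25th percentile of every array. This bar does not tell cell types apart, since no endothelial, epithelial, or smooth muscle and pericyte marker lay below it on any array. The median level over the arrays was 10.54 to 11.26 for fibroblast markers, 5.02 to 5.32 for epithelial and 4.78 to 5.06 for endothelial ones. The fibroblast list was divided, with 5 of 10 genes above WT in KO and 6 of 10 in KD (all tested genes 42.6% and 56.8%). Both KO clones lay above every WT clone for Pdgfrb, Vim, S100a4 and Fn1 (13.2% of all tested genes). Pdgfra, a growth factor receptor, read below every WT clone on both KO arrays (15.3%), at -1.42 ± 0.305 SE (adjusted p = 0.152). Lum, a small proteoglycan, gave -2.85 ± 1.35 SE in KO (adjusted p = 0.451), with KO and WT clones overlapping. Of the 9 cartilage and bone markers measured, 2 lay under the 25th percentile on every array, and their summed log2 level was 9.19 and 9.02 on the KO arrays and 9.39 and 9.45 on the KD arrays, against 9.40, 9.37 and 9.38 on the WT arrays. Sox9 had the highest signal of these 9 on every array, at 8.40 to 8.94, where the others read 5.31 or less. The median level of the list was 4.70 and 4.64 on the KO arrays, against 4.58, 4.67 and 4.86 on the WT arrays. Of its 7 tested genes, 2 lay above WT in KO and 5 in KD. Endothelial markers summed to 7.51 to 7.74, epithelial to 7.98 to 8.18 and blood markers to 7.25 to 7.45 over all arrays. The list of 6 smooth muscle and pericyte markers, of cells that lay down a basement membrane, had its highest summed levels on the KO arrays, as Col4a1 and Col4a2 did. These markers summed to 13.33 and 13.13 on the KO arrays and 12.65 and 12.53 on the KD arrays, against 12.36, 13.04 and 12.83 on the WT arrays. Of the list, 5 of 6 genes lay above WT in KO and 2 of 6 in KD (all tested genes 42.6% and 56.8%). Acta2, smooth muscle actin, had the highest signal of the list on every array, and the list's median level did not follow the sum, at 7.72 and 6.23 on the KO arrays and 6.53 and 6.14 on the KD arrays, against 6.61, 6.69 and 6.39 on the WT arrays. Both KO clones lay above every WT clone for Acta2 and Cnn1 alone of the list (13.2% of all tested genes). For Cspg4, Des and Myh11, KO 1 lay above the WT clones and KO 2 did not. KO 2 read 6.81, 4.70 and 5.65 for these, against WT ranges of 7.12 to 7.73, 4.79 to 4.87 and 5.52 to 5.65. Rgs5, a pericyte marker, read below every WT clone on both KO arrays, at -0.52 (adjusted p = 0.297). Their part in the collagen IV result was not tested.

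RefSeq promoters were at hand for 35 of the 44 collagen genes and for 27025 genes in all. In the 250 bases before the start, on either strand, GGGCGG was present in 21 of the 35 collagen promoters (60%) against 33% of all promoters. CCAAT was present in 12 (34.3% against 34.5%), and TATAAA in 5 (14.3% against 13%). Of the 10 promoters of bright chains, 6 held GGGCGG, among them Col1a2, Col5a1 and Col4a2, and 4 held CCAAT, namely Col1a2, Col4a1, Col4a2 and Col16a1. These letters describe the sequences, and no test set them against the signals.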

How the data were processed

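Total RNA of 7 fibroblast clones was measured on 1 array each. The authors deposited log2 signals, a scale read from the values (1.81 to 13.7), made with the affy package in R 2.8.0 per the submitters' processing notes. The methods of background correction, summarisation and normalization were not given in the sources used, and the labels name no batch. Of 34760 probe sets, 21640 had a single gene symbol in the platform annotation. The probe set with the highest mean stood for each of 19937 genes. A gene entered the tests if its signal exceeded that array's 25th percentile on 2 or more arrays, which left 16801.

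Two-sided moderated tests came from limma 3.58.1 under R 4.3.3, by lmFit and eBayes with a mean for each group over the 7 arrays (4 residual and 2.064 prior degrees of freedom), and p-values were adjusted by Benjamini-Hochberg over all tested genes in each comparison. The number of arrays limits the precision. KO and KD were each compared with WT and with each other; both comparisons with WT share its arrays. Members, classes, lists and tests were chosen with earlier results of these data known. Values on every array are given for Tnc, for 10 main fibroblast and basement membrane chains and for the 4 largest non-overlapping differences each way in each comparison, and of each helper list the 2 genes of smallest p against WT are named. Other collagens were named to account for all 44, with values on every array for Col12a1, Col8a1, Col6a5 and Col7a1 added after values were seen. Lum, Fn1, Sox9 and Dcn stand both in a helper list and in a marker list. The 17 alternatives were filters, normalization, centring, probe set averaging, array weights, a variance trend, fits to 2 groups, a replicate block and arrays left out. Counts of collagens above 0 or past an unadjusted p were added to them after values were seen.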

Additional observations from a re-analysis of the deposited data

Results flagged for a closer look

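Of the 82 helper genes tested, 5 had both KO clones above every WT clone and both KD clones below every WT clone (6.1%, against 1.34% of all tested genes). The reverse, with KO below and KD above WT, was flagged as well and held 0 of the 82 (1.9% of all tested genes). Opposite directions of either kind were found in no collagen gene. Plod2, the telopeptide lysyl hydroxylase, held the same value, 8.17631, on all 3 WT arrays, which thus added no spread to its SE. It differed between KO and KD by 2.18 ± 0.206 SE on the log2 scale, and this difference passed limma's test over all genes (adjusted p = 0.033). Its call was kept without either KO clone and lost without any 1 of the KD or WT clones, where the adjusted p was 0.0864 to 0.171. Ppib, a collagen prolyl isomerase, differed by 0.53 ± 0.0979 SE (adjusted p = 0.0916). Tmem38b, a cation channel of the endoplasmic reticulum, differed by 1.18 ± 0.29 SE (adjusted p = 0.143), and Thbs1, the matrix glycoprotein thrombospondin 1, by 0.70 ± 0.172 SE (adjusted p = 0.143). Ets1, a transcription factor, differed by 0.43 ± 0.141 SE (adjusted p = 0.213). Groups of 2 and 3 clones are too small for a test of single outlying arrays.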

How the results depend on the processing

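Across all 17 alternatives 0 collagen genes passed an adjusted p under 0.05 in any comparison. The number of all tested genes called, 28 in KO against WT, 3 in KD against WT and 63 in KO against KD, was not stable. It became 38 for KO against KD without a filter, 79 and 111 (KO against WT, then KO against KD) with genes above the array median, 45 and 100 with quantile normalization, and 71 and 137 with each array centred. Centring split the 71 into 61 higher and 10 lower, where the fit reported above had 20 and 8. KO against KD gave 18 with array weights and 26 with a variance trend. Fits to 2 groups gave 6, 0 and 0 in the 3 comparisons (2055, 2424 and 2216 at an unadjusted p under 0.05). The replicate block, on numbers that pair no samples, gave 2, 0 and 2 (1700, 2206 and 2670 unadjusted). Same-numbered deviations correlated at 0.00196 for KO with KD, -0.028 and -0.0738 for KO with WT, and -0.045 and 0.199 for KD with WT. Without both deficient arrays numbered 2 the counts were 1, 0 and 1 (2512 unadjusted in KD against WT). Leaving out 1 array gave 3 to 71, 0 to 0 (1617 to 2606 unadjusted) and 0 to 103 (2557 unadjusted without KD 2, where it was 0). The lowest count in KO against WT came without WT 3 and the highest without KO 2. The cause of these shifts was not tested.

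The collagen median in KO against KD was -0.0067 with arrays centred. Turned signs all belonged to differences that had not passed. With quantile normalization Col1a2 and Col3a1 gave -0.018 and -0.055 in KO against KD. Centred, Col13a1 gave 0.012 in KO against WT and Col16a1 4.14e-05 in KO against KD. Col23a1 in KO against WT gave -0.0094 with array weights and -0.0020 with the replicate block. Without both arrays numbered 2, Col13a1 and Col26a1 gave 0.014 and 0.0070 in KO against WT, Col4a1 and Col4a2 0.15 and 0.33 in KD against WT, and Col3a1 and Col16a1 -0.021 and 0.060 in KO against KD. With 1 array left out, KO against WT ran from -0.029 to 0.10 for Col23a1, -0.083 to 0.014 for Col13a1 and -0.26 to 0.0070 for Col26a1. KD against WT ran from -0.69 to 0.15 for Col4a1 and -0.44 to 0.33 for Col4a2. KO against KD ran from -0.0067 to 0.35 for Col1a1, -0.055 to 0.14 for Col1a2, -0.34 to 0.35 for Col3a1, -0.052 to 0.49 for Col5a2 and -0.23 to 0.081 for Col16a1. Among the other genes named, Tnc was called under 6 of the 17 alternatives in each comparison with WT and Plod2 under 9 of 17 in KO against KD. In KO against WT, Plod2 passed without KO 1 (adjusted p = 0.0495) and Pcolce2 without WT 2 (adjusted p = 0.0345), and no other helper gene named for its p against WT passed in that comparison under these alternatives.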
